A study of Mus musculus with 4 samples.

Results

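The 9 genes described here, which mark the trophectoderm and its epithelial keratins, were followed through RNA-seq of mouse embryonic stem cells with and without a knockdown of the long noncoding RNA Cyrano. They are the 9 rows Cdx2, Elf5, Gata2, Gata3 and Esx1 (transcription factor genes) and Krt7, Krt8, Krt18 and Krt19 (keratin genes), chosen by name out of 23366 gene symbols in the count files. The cells were of the R1 line, which are mouse embryonic stem cells with the strain background 129X1 x 129S1, kept on gelatin in medium with serum, serum replacement and the cytokine LIF. There were 2 control libraries, transfected with a non-targeting short hairpin RNA, and 2 knockdown libraries, transfected with a hairpin against Cyrano. All 4 cultures carried the same kind of vector, with fluorescent and puromycin-resistance markers, and were enriched for transfected cells by puromycin or by flow cytometry. The sources used here do not say which method served which library. The study is about this RNA, microRNA activity and stem cell self-renewal, and the comparison here asked whether genes of an extraembryonic fate moved once Cyrano was lowered.

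The trophectoderm is the outer epithelium of the blastocyst and gives rise to the placenta. CDX2 sets its identity in opposition to the pluripotency factor OCT4, GATA3 and GATA2 act beside or below CDX2, and ELF5 sustains the trophoblast stem cell state that follows. ESX1 is an X-linked homeobox factor of the placenta and of male germ cells. Keratins are the intermediate filament proteins of epithelia and polymerise only as pairs of a type II chain (KRT7, KRT8) and a type I chain (KRT18, KRT19). KRT8 and KRT18 are the first keratins of the embryo, and embryonic stem cell cultures hold low levels of them in differentiating cells.

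The 2 genes of the KRT8 and KRT18 pair are next to each other on chromosome 15, and their ratio did not overlap between the groups, so their promoters are shown with that of Esx1, the member with the largest fold change. Sequences are from RefSeq on build GRCm38.p6, from 250 bases before the annotated start to 50 after it, read 5′ to 3′ along the gene's strand. Capitals mark matches, on either strand, to 6 short motifs. Of the core promoter these were TATAAA, the TATA element, and GGGCGG, bound by Sp1. Letters bound by factor families were AGATAA for GATA factors, CATTCC for TEAD factors, TGANTCA for the AP-1 dimer and TTTATG for CDX factors.
Krt8 promoter, chr15:102004293-102004592, minus strand: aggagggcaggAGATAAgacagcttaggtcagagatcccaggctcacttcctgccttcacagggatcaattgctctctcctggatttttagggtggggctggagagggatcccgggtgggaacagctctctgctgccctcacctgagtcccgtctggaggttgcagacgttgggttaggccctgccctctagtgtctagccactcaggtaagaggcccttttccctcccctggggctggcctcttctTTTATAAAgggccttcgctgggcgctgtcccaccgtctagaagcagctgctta
Krt18 promoter, chr15:102027966-102028265, plus strand: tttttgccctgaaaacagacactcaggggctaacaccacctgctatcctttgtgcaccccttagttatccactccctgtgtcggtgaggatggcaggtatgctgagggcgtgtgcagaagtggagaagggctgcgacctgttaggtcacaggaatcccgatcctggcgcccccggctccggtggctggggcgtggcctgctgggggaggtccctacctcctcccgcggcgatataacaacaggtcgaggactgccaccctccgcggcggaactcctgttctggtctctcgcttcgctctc
Esx1 promoter, chrX:137120277-137120576, minus strand: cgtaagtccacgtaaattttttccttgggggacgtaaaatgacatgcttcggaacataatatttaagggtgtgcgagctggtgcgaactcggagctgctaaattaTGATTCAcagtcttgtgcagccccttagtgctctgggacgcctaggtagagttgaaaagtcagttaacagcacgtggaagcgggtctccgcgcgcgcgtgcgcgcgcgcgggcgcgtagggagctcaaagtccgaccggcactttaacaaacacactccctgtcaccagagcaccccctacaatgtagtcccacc
The Krt8 window held AGATAA, and a stretch that reads as TATAAA on both strands through overlapping matches. The Krt18 window held none of the 6, and the Esx1 window held 1 match, to TGANTCA. Among 32851 promoters of this length, TATAAA was found in 13.6%, AGATAA in 11.2%, TGANTCA in 7.81%, CATTCC in 14.7%, TTTATG in 11.9% and GGGCGG in 35.7%. RefSeq windows were matched for 8 of the 9 members, with 10 windows in all, and GGGCGG was found in 4 of them: those of Gata3 and Krt7 and both of Gata2. CATTCC was found in 1 window each of Elf5 and Gata2, and TTTATG in 1 of Elf5. These matches describe letters and not binding.

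Cyrano binds the microRNA miR-7, whose main mouse form is shown to give the site that was searched, with the seed (bases 2 to 8) in capitals.
mmu-miR-7a-5p: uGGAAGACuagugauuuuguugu
A match was GTCTTCC, which pairs with the seed, or TCTTCCA. None of the 9 members had a match in its longest annotated 3′ UTR, whereas 3298 of 12577 tested genes with a searched 3′ UTR (26.2%) had 1 or more. The searched UTRs ran from 66 bases in Krt18 and 103 in Krt19 to 2648 in Krt7, and short ones hold fewer matches of any kind.

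Library depth was 16854403 and 19138196 counts over genes in controls 1 and 2, and 22321102 and 20761783 in knockdown libraries 1 and 2. The targeted RNA, listed as 1700020I14Rik, had 407 and 286 counts in the controls, beside 89 and 68 after knockdown. Both knockdown libraries lay below both controls, with a log2 fold change of -2.48 ± 0.30 (SE; adjusted p = 0.0070 by edgeR's quasi-likelihood test). That call was lost when either control was left out, with log2 fold changes of -2.08 for control 1 and -2.79 for control 2. It was also lost by limma-voom (-2.42, adjusted p = 0.051). The call held by DESeq2 (-2.48, adjusted p = 5.9e-10) and in each other setting that kept every library. Without knockdown library 1 the log2 fold change was -2.66, and without knockdown library 2 it was -2.32. Rn45s, the ribosomal RNA precursor, took 17.5% and 15.9% of counts in the controls, against 12.3% and 11.0% in the knockdown libraries. Pou5f1, which encodes the stem cell factor OCT4, lay between 929 and 1051 CPM. CPM are counts scaled by library size times the TMM factor, which corrects for composition.

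The 9 members together made up little of the RNA. They summed to 445 and 599 counts in the controls, against 607 and 640 in the knockdown libraries, which is 27.1, 31.7, 27.2 and 29.7 CPM in that order. The groups overlapped in this sum. The 4 keratins gave 19.6 and 23.5 CPM in the controls, against 20.1 and 21.8 CPM after knockdown. The 5 factors gave 7.42 and 8.20 CPM in the controls, against 7.07 and 7.94 CPM after knockdown. Both of these sums also overlapped between the groups. In bulk RNA such as this, fewer cells of a type and less RNA per cell cannot be told apart.

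Levels of different genes were compared as CPM per kilobase of transcript, averaged over the 4 libraries. Krt8 stood first at 7.03, above 48.6% of tested genes, and Krt18 second at 3.57, above 35.9%. Krt19 followed at 1.37, Esx1 at 1.30 and Gata2 at 1.00. Gata3 had 0.43, Cdx2 0.30, Elf5 0.057 and Krt7 0.049. The range over libraries did not overlap between Krt8 (6.13 to 8.46) and Krt18 (3.13 to 3.96), between Krt18 and Krt19 (1.16 to 1.53), or between Cdx2 (0.22 to 0.47) and Elf5 (0 to 0.12). Ranges of the other neighbours in this order overlapped, Esx1 spanning 0.78 to 1.97, Gata2 0.64 to 1.5 and Gata3 0.19 to 0.70. Krt8 therefore stood near the middle of the tested genes and Cdx2 near the bottom, above 5.73% of them, with Gata3 above 8.59%.

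**Figure D1:**
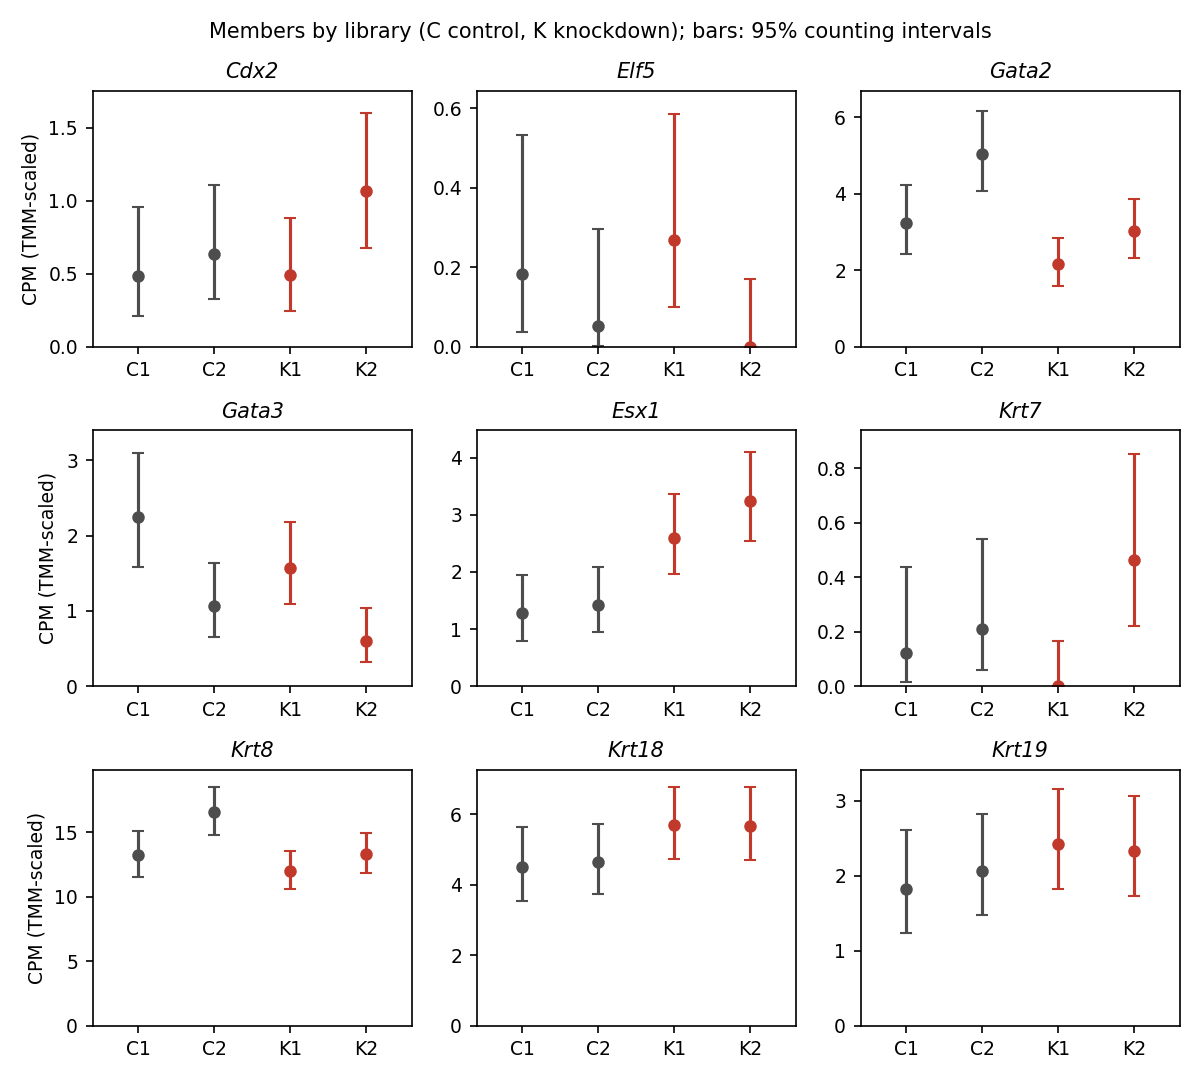
TMM-scaled CPM of each member in the control (C1, C2, grey) and knockdown (K1, K2, red) libraries, with bars for 95% exact Poisson intervals, which cover counting error only. Esx1 lay at 1.28 and 1.43 in the controls, against 2.60 and 3.25 after knockdown, and Elf5 and Krt7 each had 1 knockdown library at 0.

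Of the 9 members, 7 passed the filter on low counts and were tested, and none was called after Benjamini-Hochberg adjustment over all 13199 tested genes. The background was as sparse, since 0.0833% of tested genes were called. Esx1 was the 1 member with an unadjusted p under 0.05, or 1 of 7, where 11.6% of all tested genes passed that level. The groups did not overlap in 4 of the 7 (knockdown above in 3 and below in 1), beside 43.5% of all tested genes in either direction and 22.3% above. The log2 fold change was above 0 in 4 of the 7, against 49.8% of all genes, and the median was 0.28 against -0.002. A member could pass the filter through 1 group alone, so that the counts over the 7 describe the genes tested and not the set of 9. The submitters call the libraries biological replicates, without saying how the cultures were separated, so the p-values refer to the spread among these 4 libraries only.

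Among the factors of trophectoderm identity, Cdx2, the homeobox gene at the head of the lineage, had 8 and 12 counts in the controls, against 11 and 23 in the knockdown libraries. That is 0.49 and 0.64 CPM against 0.49 and 1.07 CPM. Knockdown library 2 was the high one and library 1 lay within the controls, so the groups overlapped. Its log2 fold change was 0.46 ± 0.77 (SE), with a 95% interval of -1.21 to 2.14 (edgeR adjusted p = 0.86). Without knockdown library 2 it was -0.19, on the other side of 0.

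Gata3, a zinc finger factor gene that can drive trophoblast fate, had 37 and 20 counts in the controls, beside 35 and 13 after knockdown. Its levels were 2.25 and 1.06 CPM in the controls, against 1.57 and 0.60 CPM in the knockdown libraries. Library 1 was the higher of each group, by 2.13-fold in the controls and by 2.60-fold in the knockdown libraries, so the spread within a group exceeded the difference between groups. On the log2 scale the difference was -0.59 ± 0.65 (SE), with a 95% interval of -2.00 to 0.81 (edgeR adjusted p = 0.76). Without control library 1 it was 0.04. The annotation places other genes over Gata3, of which the files list 4930412O13Rik, on the opposite strand, and 9230102O04Rik. They had 1 count and none over all libraries, yet reads that overlap 2 genes can be lost as ambiguous.

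Gata2, the related factor gene known from trophoblast and from blood progenitors, was the best measured of the factors, with 53 and 95 counts in the controls, beside 48 and 65 after knockdown. It had 3.22 and 5.03 CPM in the controls, against 2.15 and 3.02 CPM in the knockdown libraries. Both knockdown libraries lay below both controls, with library 2 the higher of each group. The control mean was 4.13 ± 1.28 CPM and the knockdown mean 2.58 ± 0.61 CPM (SD, n = 2 each). The log2 fold change was -0.68 ± 0.40 (SE), with a 95% interval of -1.55 to 0.20 (edgeR adjusted p = 0.54). The 95% counting intervals of knockdown libraries 1 and 2 (1.58 to 2.85 and 2.33 to 3.85 CPM) overlapped that of control library 1 (2.41 to 4.22 CPM). Both lay below that of control library 2 (4.07 to 6.15 CPM), and such intervals cover counting error only. Without control library 2 the log2 fold change was -0.32, and without control library 1 it was -0.96.

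Elf5, an ETS factor gene of trophoblast stem cells, was at the limit of detection. It had 3 and 1 counts in the controls, against 6 and 0 in the knockdown libraries, and was not tested. A floor of 3 counts corresponds to 0.13 to 0.18 CPM in these libraries, and the group means of 0.12 and 0.13 CPM lay at or below it. The ratio of pooled counts, knockdown over control, was 1.21 with a 95% exact binomial interval of 0.29 to 5.82, so that no difference was detectable at this depth.

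Esx1, the placental homeobox gene on the X chromosome, had the largest fold change of the tested members. It had 21 and 27 counts in the controls, against 58 and 70 in the knockdown libraries. These were 1.28 and 1.43 CPM against 2.60 and 3.25 CPM, with both knockdown libraries above both controls and no overlap. The mean was 1.35 ± 0.11 CPM in the controls, against 2.92 ± 0.46 CPM after knockdown (SD, n = 2 each), a ratio of 2.16. Its log2 fold change was 1.11 ± 0.46 (SE), with a 95% interval of 0.10 to 2.11 and an unadjusted p of 0.033 (edgeR). Adjusted over all genes p was 0.38, so Esx1 was not called. Leaving out 1 library at a time gave log2 fold changes between 0.94 and 1.25. The unadjusted edgeR p rose to 0.10 without control 1, 0.072 without control 2 and 0.15 without knockdown library 2, and DESeq2 gave 0.061.

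**Figure D2:**
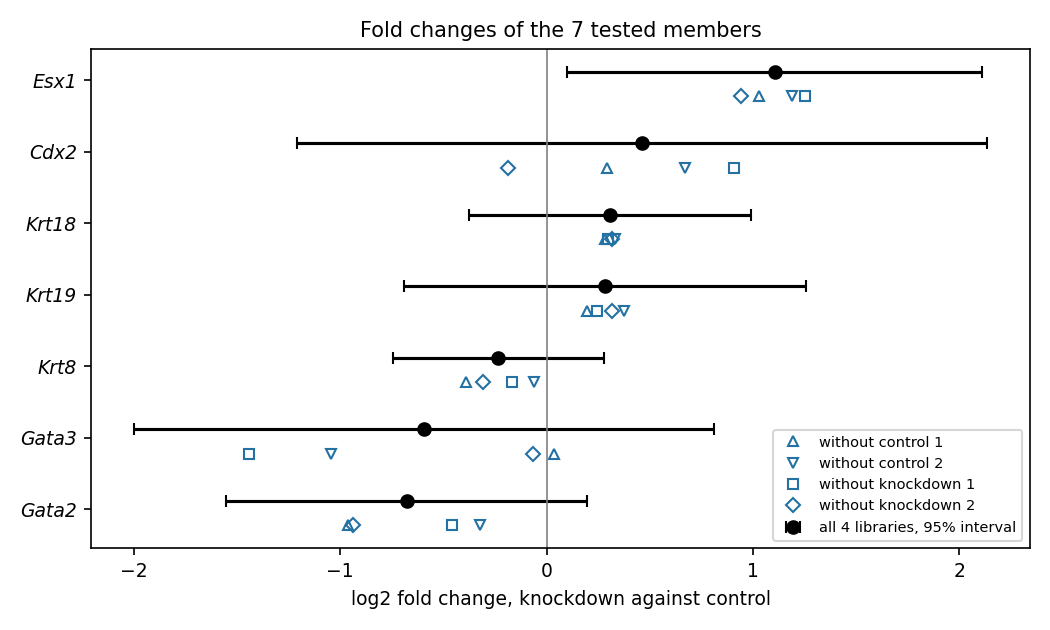
Log2 fold change of the 7 tested members, knockdown against control, with 95% intervals from edgeR (black) and, below each, the value with 1 library left out (blue). The interval of Esx1 starts at 0.10, those of the other 6 span 0, and leaving out a library moves Cdx2 and Gata3 across 0.

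Among the keratins, Krt8, the type II chain and the most abundant member, had 217 and 313 counts in the controls, against 268 and 287 in the knockdown libraries. Its levels were 13.2 and 16.6 CPM in the controls, against 12 and 13.3 CPM after knockdown. Control library 2 was high and the other libraries lay close together, so the groups overlapped. On the log2 scale the difference was -0.23 ± 0.24 (SE), with a 95% interval of -0.75 to 0.28 (edgeR adjusted p = 0.74). It was -0.06 without control library 2 and -0.39 without control library 1. A processed pseudogene of Krt8, Krt8-ps, is annotated outside the files' gene list, and reads that align equally to both copies would not enter the count.

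Krt18, the type I partner of Krt8, had 74 and 88 counts in the controls, beside 127 and 122 after knockdown. It had 4.50 and 4.66 CPM in the controls, against 5.69 and 5.66 CPM in the knockdown libraries. Replicates were close in both groups, and both knockdown libraries lay above both controls. The log2 fold change was 0.31 ± 0.32 (SE), with a 95% interval of -0.38 to 0.99 (edgeR adjusted p = 0.75).

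Krt19, a smaller type I keratin that also pairs with KRT8, had 30 and 39 counts in the controls, beside 54 and 50 after knockdown. Its levels were 1.82 and 2.06 CPM against 2.42 and 2.32 CPM, again with no overlap. Its log2 fold change was 0.28 ± 0.45 (SE), with a 95% interval of -0.69 to 1.26 (edgeR adjusted p = 0.85). For Krt18 and for Krt19, the 95% counting interval of each knockdown library overlapped that of each control.

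Krt7, the type II keratin of mature trophoblast and of ductal epithelia, had 2 and 4 counts in the controls, against 0 and 10 in the knockdown libraries. It was not tested. The knockdown libraries stood on both sides of the controls, and the ratio of pooled counts was 1.34 with a 95% exact binomial interval of 0.44 to 4.49. An antisense gene and, for Krt8, an opposite-strand noncoding gene overlap these loci in the annotation, and the sources used here do not say whether strand was used in counting.

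Keratin chains are made in pairs, so the ratio of their transcripts was also taken within each library, where no scaling between libraries enters. Counts per kilobase of Krt8 exceeded those of Krt18 by 2.15 and 2.61 times in the controls, and by 1.55 and 1.73 times in the knockdown libraries. Both knockdown ratios lay below both control ratios, with means of 2.38 ± 0.32 and 1.64 ± 0.13 (SD, n = 2 each) and a log2 difference of -0.54. The exact permutation test (two-sided) had p = 0.333, which is the lowest value possible with 2 libraries in each group. The 95% exact binomial interval of knockdown library 1 (1.25 to 1.93) did not overlap that of control library 2 (2.05 to 3.35). It overlapped that of control library 1 (1.65 to 2.84), and the interval of knockdown library 2 (1.39 to 2.15) overlapped those of both controls. These intervals cover counting error only.

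The ratio of both type II to both type I keratins behaved alike, at 1.58 and 1.87 in the controls, against 1.12 and 1.28 after knockdown (exact permutation p = 0.333). It shares Krt8 and Krt18 with the first ratio and is no separate evidence. Between the type I chains the ratio of Krt18 to Krt19 was 2.71 and 2.47 in the controls, against 2.58 and 2.68 after knockdown, with overlap and a log2 difference of 0.02 (exact permutation p = 1).

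**Figure D3:**
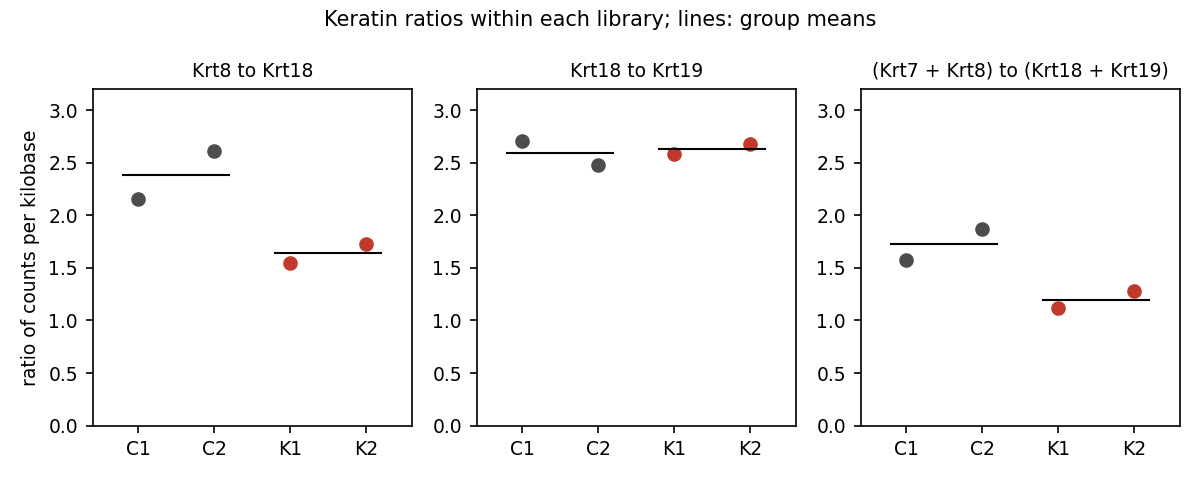
Ratios of counts per kilobase within each control (C1, C2, grey) and knockdown (K1, K2, red) library, with lines at the group means. Krt8 to Krt18 lay at 2.15 and 2.61 in the controls, against 1.55 and 1.73 after knockdown, whereas Krt18 to Krt19 stayed between 2.47 and 2.71 in all 4 libraries.

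Across the 4 libraries, the genes whose pattern came nearest to Krt8 were Ftl1, which encodes ferritin light chain, and Eif3f, a translation initiation factor gene. Nearness was the mean absolute difference between centred log2 (CPM + 1) values, 0.014 for Ftl1 and 0.016 for Eif3f, among 8377 genes of at least 10 CPM. No other member reached that level. Ftl1 had 3040 and 3678 CPM in the controls, against 2792 and 3028 CPM after knockdown, so its high library was the same one, control 2. With 4 libraries and 8377 candidates some close match is likely for any pattern, so nearness is descriptive and no evidence of a link.

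Other genes of the trophoblast were taken from a list of 28, of which 27 are in the files and 20 were tested. None was called by edgeR or limma-voom, nor by DESeq2 among the 10 of the 20 to which it gave an adjusted p. Of the 20, 12 had a log2 fold change above 0 and 8 below, and the median was 0.11 against -0.002 for all genes. Peg10, an imprinted retrotransposon-derived gene needed in the placenta, was the most abundant, at 442 and 226 CPM in the controls, against 649 and 443 CPM in the knockdown libraries (log2 fold change 0.71 ± 0.33, edgeR adjusted p = 0.47). At an unadjusted p under 0.05, Gcm1 and Tspan8 were higher and Cdh3 lower, among 20 tested. Over all tested genes 11.6% passed that level in either direction. Gcm1, the factor gene of syncytiotrophoblast, had 3 and 0 counts in the controls, against 40 and 11 in the knockdown libraries. The ratio of its pooled counts was 13.7 with a 95% exact binomial interval of 4.43 to 68.6, for counting error only, and its edgeR adjusted p was 0.24. That interval leaves out the spread between the knockdown libraries, at 1.79 and 0.51 CPM. Gcm1 passed the filter on low counts through the knockdown libraries alone, so its ratio and p are no separate support for a rise. Tspan8, a tetraspanin gene, had 12 and 11 counts in the controls, beside 34 and 48 after knockdown (log2 fold change 1.51 ± 0.60, adjusted p = 0.36). Cdh3, the P-cadherin gene, had 14.1 and 9.79 CPM in the controls, against 8.73 and 5.48 CPM after knockdown (-0.75 ± 0.31, adjusted p = 0.36). The placental hormone genes Prl3d1, Prl3b1 and Prl2c2, the spongiotrophoblast gene Tpbpa and the fusion gene Synb had no count in any library.

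Of the 10 trophectoderm markers set down for the label, 8 are members themselves, so only Tfap2c and Eomes bear on it independently. Tfap2c, a factor gene shared with naive stem cells, was at 19.2 and 25.1 CPM in the controls, against 23.2 and 35.3 CPM after knockdown. Eomes, the T-box factor gene of trophoblast stem cells and mesendoderm, had 9.24 and 6.30 CPM against 6.36 and 6.08 CPM. The groups overlapped in both genes (edgeR adjusted p = 0.54 for Tfap2c and 0.73 for Eomes). Genes of the trophoblast were thus found at levels from no count (Synb) to 649 CPM (Peg10), and these values do not settle whether the cultures held trophectoderm cells. The members are described here as single genes.

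Of 23 other keratins, most of stratified epithelia, 4 had no count and 4 were tested, of which none was called by edgeR or limma-voom, nor by DESeq2 among the 2 to which it gave an adjusted p. At an unadjusted p under 0.05, 1 was higher and 1 lower, beside 11.6% of all tested genes in either direction. Krt42 was the highest, at 30.0 and 20.8 CPM in the controls, against 21.9 and 11.3 CPM after knockdown (log2 fold change -0.61 ± 0.30, edgeR adjusted p = 0.47). Krt17 had 8.33 and 4.76 CPM against 4.48 and 2.37 CPM (-0.93 ± 0.40, adjusted p = 0.39). Krt10, the type I keratin of differentiated epidermis, went the other way, from 1.09 and 1.48 to 3.54 and 2.51 CPM (1.22 ± 0.48, adjusted p = 0.35). The fourth, Krt13, had a log2 fold change of -0.80.

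The 11 tested of 14 desmosome and keratin-linker genes, which anchor keratin filaments at the cell surface, had a median log2 fold change of -0.28, with 7 below 0 and none called by edgeR or limma-voom, nor by DESeq2 among the 7 to which it gave an adjusted p. At an unadjusted p under 0.05, 2 were lower, beside 11.6% of all tested genes in either direction. Dsp, the gene of desmoplakin, had 20.8 and 19.1 CPM in the controls, against 14 and 12 CPM after knockdown (-0.62 ± 0.22, edgeR adjusted p = 0.30). Evpl, which encodes envoplakin, had 6.08 and 4.92 against 3.45 and 3.02 CPM (-0.76 ± 0.35, adjusted p = 0.42). Jup, the gene of plakoglobin, was the most abundant, at 352 and 333 CPM in the controls, against 339 and 226 CPM after knockdown, with adjusted p = 0.58.

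Epithelial junction and polarity genes (17 tested of 18) had a median of -0.02, with 8 above 0, 9 below and none called. At an unadjusted p under 0.05, 2 were higher and 1 lower, beside 11.6% of all tested genes in either direction. DESeq2, with an adjusted p for 12 of the 17, called Epcam higher and limma-voom called none. Epcam, an epithelial adhesion molecule gene also high in stem cells, had 48.0 and 57.7 CPM in the controls, against 82.7 and 82.4 CPM after knockdown (0.64 ± 0.16, edgeR adjusted p = 0.16). Aqp3, an aquaporin gene of the blastocyst epithelium, had 94.3 and 108 CPM against 50.2 and 73.4 CPM (-0.71 ± 0.19, adjusted p = 0.18). Grhl3, an epidermal factor gene, had 27.2 and 24.1 against 39.6 and 36.6 CPM (0.57 ± 0.18, adjusted p = 0.24). Cdh1, the E-cadherin gene, overlapped between groups at 336, 244, 345 and 311 CPM in controls 1 and 2 and knockdown libraries 1 and 2.

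**Figure D4:**
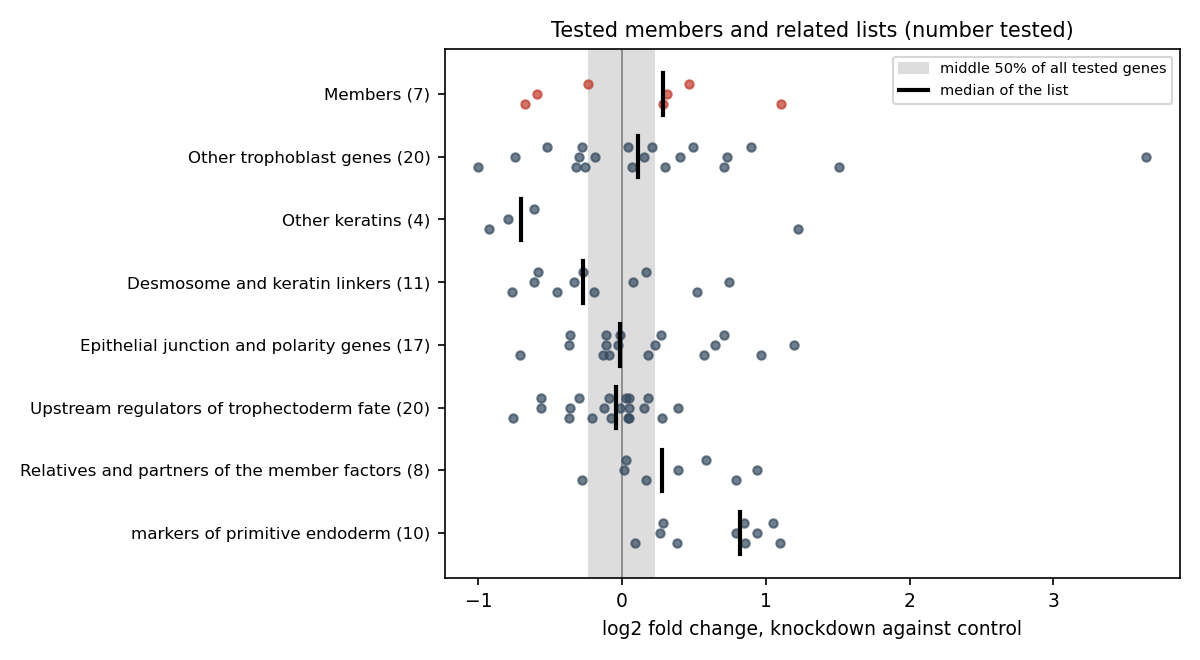
Log2 fold change, knockdown against control, of each tested gene among the members and 7 related lists (number tested in brackets), with a bar at each list's median and grey for the middle 50% of all tested genes (-0.23 to 0.22). The members have a median of 0.28 and the primitive endoderm markers one of 0.82, and Gcm1 is the trophoblast gene at the far right.

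Upstream regulators of the trophectoderm decision were all 20 tested, with a median of -0.04, 11 below 0 and none called. The 4 with an unadjusted p under 0.05 were lower, beside 11.6% of all tested genes at that level in either direction. Among these 4, Nanog, a repressor of extraembryonic fates, had 216 and 228 CPM in the controls, against 129 and 133 CPM after knockdown (-0.76 ± 0.14, edgeR adjusted p = 0.070). Notch1, whose receptor acts beside YAP and TEAD4 on Cdx2, had 89.9 and 80.9 against 62.5 and 53.2 CPM (-0.56 ± 0.16, adjusted p = 0.19). Amotl1, an angiomotin-family gene of the Hippo pathway, had 51.4 and 44.2 against 37.4 and 27.4 CPM (-0.56 ± 0.19, adjusted p = 0.29). Klf5, a Krüppel-like factor gene, had 354 CPM in each control, against 280 and 296 CPM after knockdown (-0.30 ± 0.14, adjusted p = 0.43). DESeq2 called Nanog lower, and limma-voom called none of the 20.

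Relatives and partners of the member factors (8 tested of 12) had a median of 0.28, with 7 above 0 and none called. At an unadjusted p under 0.05, 3 were higher, beside 11.6% of all tested genes in either direction. DESeq2, with an adjusted p for 5 of the 8, called Gata4 higher and limma-voom called none. Gata4 had 12.8 and 21.9 CPM in the controls, against 30.3 and 36.6 CPM after knockdown, which is 0.94 ± 0.25 on the log2 scale (edgeR adjusted p = 0.18). Gata6 had 24.1 and 34.1 CPM against 40.5 and 60.6 CPM (0.79 ± 0.23, adjusted p = 0.21). For the member Gata2 the fold change had the opposite sign, -0.68, and for Gata3 it was -0.59. Cdx1, the close relative of Cdx2, had 10.5 and 12.5 CPM against 19.2 and 15.4 CPM (0.58 ± 0.24, adjusted p = 0.36).

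Simple keratins are also made by the primitive endoderm, the other extraembryonic layer, so its markers are given beside Krt8, Krt18 and Krt19. Of 12 markers 10 were tested, all 10 with log2 fold changes above 0 (median 0.82), and none was called by edgeR or limma-voom. At an unadjusted p under 0.05 by edgeR, 6 were higher, beside 11.6% of all tested genes in either direction. DESeq2, with an adjusted p for 9 of the 10, called Gata4 and Pdgfra higher. Pdgfra, the marker with the lowest edgeR p, had 18.2 and 20.4 CPM in the controls, against 32.0 and 50.9 CPM after knockdown (log2 fold change 1.10 ± 0.23, edgeR adjusted p = 0.093). The list summed to 567 and 542 CPM in the controls, against 852 and 670 CPM after knockdown, and Ttr was at 0 in all 4 libraries. Most of this sum was Col4a1, at 430 and 400 CPM in the controls, against 640 and 439 CPM after knockdown. Its log2 fold change was 0.38 ± 0.18 (edgeR adjusted p = 0.43), below the list median of 0.82. The sum is thus weighted towards Col4a1 and does not describe the other markers. The part of these markers in the values of Krt18 and Krt19 was not tested. Blood and endothelial markers, given for Gata2, summed to 97.7 and 69.5 CPM in the controls, against 83.7 and 76.0 CPM after knockdown. Pecam1 alone supplied 58.6 and 45.3 CPM of this sum in the controls, against 45.1 and 42.5 CPM after knockdown. Among these markers 7 of 10 were tested, 4 lay above 0 and 3 below with a median of 0.01, and Hbb-b1, Hba-a1 and Ptprc were at 0. Runx1, a factor gene of blood formation, was the 1 with an unadjusted p under 0.05, at 3.89 and 5.56 CPM in the controls, against 7.34 and 11.2 CPM after knockdown (log2 fold change 0.97 ± 0.33, edgeR adjusted p = 0.28). Surface ectoderm markers (4 tested of 8) summed to 77.7 and 67.2 against 82.0 and 65.1 CPM, with a median of -0.38. Most of this sum came from Grhl3, Sfn and Itgb4, whereas Krt5, Krt14, Krt15 and Trp63 were at most 0.49 CPM in any library. Fibroblast markers (4 tested of 10) summed to 44.7 and 30.0 against 56.5 and 30.5 CPM, with a median of -0.37 and Col3a1, Postn, Dcn and Lum at 0. Thy1 alone supplied 38.0 and 21.5 CPM of this sum in the controls, against 48.0 and 20.4 CPM after knockdown. The 2-cell-like markers (2 tested of 8) summed to 5.47 and 4.39 against 5.55 and 4.97 CPM, with a median of 0.41 and Gm4340, Tcstv1 and Tcstv3 at 0. Stem cell markers (10 tested of 10) summed to 4860 and 5149 against 4820 and 4662 CPM, with a median of -0.04. Neither edgeR nor limma-voom called a marker of these lists, and beside Gata4 and Pdgfra DESeq2 called Nanog, among the stem cell markers, lower. With an unadjusted edgeR p under 0.05, Grhl3 was higher and Itgb4 lower among surface ectoderm markers, and Twist1 was higher among fibroblast markers. Of the stem cell markers Dppa5a was higher and Nanog and Esrrb lower at that level, which 11.6% of all tested genes passed. DESeq2 gave no adjusted p for 4 of the 7 tested blood markers, 2 of the 4 fibroblast markers, 1 of the 4 of surface ectoderm and both 2-cell-like markers.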

How the data were processed

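Polyadenylated RNA of 4 libraries was measured by strand-specific (dUTP) RNA-seq, per the labels' protocols. The deposited values are whole-number read counts for each gene symbol, made by the authors with TopHat, HTSeq, SAMtools and bedtools on build mm9, per the submitters' processing notes. The sources used here name neither the annotation nor the strand setting. The 5 tallies that name no gene were left out, among them reads without a unique alignment (26.1% to 32.8% of tallied reads).

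Groups and replicate numbers came from the titles. Counts were tested in R 4.3.3 with edgeR 4.0.16: filterByExpr (minimum count 10), TMM factors, robust glmQLFit and glmQLFTest on group alone, two-sided, Benjamini-Hochberg over all genes, threshold 0.05. SE was taken as the size of the log2 fold change divided by the root of F. The biological coefficient of variation was 17.4%. The script was tested on simulated data. Alternatives used limma 3.58.1 and DESeq2 1.42.0. Counting intervals and floors (3 counts) cover counting error only. Replicates differed beyond sampling noise (chi-square over degrees of freedom 25.4 between controls and 20.5 between knockdown libraries).

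Lengths are medians over protein-coding basic transcripts of GENCODE M21 (GRCm38), which also gave the overlapping genes and the pseudogene, while gene neighbours are from RefSeq. No coordinates are printed from GENCODE, to which 98.5% of symbols matched, and the promoter coordinates are those of RefSeq. The members and lists were chosen with earlier results of these data known. All members are named, and from each list the genes with the lowest p and the highest level, though not every such gene is printed. Krt13, Klf5, Runx1, Itgb4, Twist1, Dppa5a, Esrrb, Krt5, Krt14, Krt15, Trp63 and the genes at 0 were named after their values were seen.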

Additional observations from a re-analysis of the deposited data

Results flagged for a closer look

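Reads that fell on more than 1 gene, which enter no gene's count, made up a mean of 0.584% of tallied reads in the knockdown libraries and 0.486% in the controls. Both knockdown libraries lay above both controls, and this tally is outside the gene counts compared above. Reads without a unique alignment, which belong to the same total, made up 32.8% and 30.2% in the controls, against 28.7% and 26.1% after knockdown. Their part in the difference was not tested. Whether any such read came from a member could not be told from the files.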

How the results depend on the processing

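No member was called, higher or lower, under any of the 15 alternatives, all of which were planned: 3 other scalings, leaving out Rn45s and Lars2, no filter, DESeq2, limma-voom, no robust estimation, leaving out each library, an offset for length and GC, and the replicate block with and without this offset. DESeq2 gave no adjusted p for 5 of the 7 tested members. Directions held for Gata2, Krt8, Krt18, Krt19 and Esx1 in all 15, with Gata2 between -0.96 and -0.32, Krt8 between -0.39 and -0.06, Krt18 between 0.24 and 0.36, Krt19 between 0.20 and 0.37 and Esx1 between 0.94 and 1.25, the last with adjusted p between 0.15 and 0.86. Over left-out libraries, Gata3 ranged from -1.44 to 0.037 and Cdx2 from -0.19 to 0.91. The log2 difference of the Krt8 to Krt18 ratio ranged from -0.67 to -0.40 over left-out libraries. Labels give both groups numbers 1 and 2 but no shared batch. With 2 pairs, same-numbered libraries deviated together (r = 0.24 across genes). Swapping the numbers of 1 group would only reverse the sign of r, so this value cannot show a shared batch. The replicate block raised calls over all genes from 5 higher and 6 lower to 504 and 451, with 0 members among them. With no filter, Krt7 and Elf5 had log2 fold changes of 0.45 ± 1.70 and 0.22 ± 2.00. Depth limits Elf5, Krt7 and Cdx2, which had at most 23 counts in a library.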
